A study of Mus musculus with 15 samples.

Results

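The 9 genes described here move chloride, bicarbonate, sodium and potassium across the gut epithelium, and their messenger RNA was followed in the jejunum of peanut-challenged mice: Slc9a3, Slc26a3, Slc26a6, Cftr, Slc12a2, Kcnn4, Kcnq1, Kcne3 and Slc4a4. They were listed by name for their part in setting the fluid content of the gut, by a rule that uses no measured value. The choice was made with earlier results of these data known. The 9 genes are among 52844 annotated genes in the data, and all 9 were expressed at levels that passed the filter on low counts.

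Fluid crosses the intestinal wall behind salt. On the absorptive side, villus cells take up sodium through the apical exchanger NHE3, made by Slc9a3, which works beside the apical anion exchangers DRA (Slc26a3) and PAT-1 (Slc26a6) so that sodium chloride enters the cell and bicarbonate leaves it. On the secretory side, mostly in crypts, the basolateral cotransporter NKCC1 (Slc12a2) loads chloride into the cell, the basolateral cotransporter NBCe1 (Slc4a4) loads bicarbonate, the apical channel CFTR (Cftr) lets both out, and the basolateral potassium channels KCNN4 and KCNQ1, the second with its subunit KCNE3, recycle potassium and hold the driving force. Cyclic AMP and calcium, raised by neurotransmitters and mast cell mediators, open these channels and inhibit NHE3, and diarrhea is a familiar sign of food-induced anaphylaxis. That control acts on the proteins within minutes and is not read by messenger RNA.

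RNA was sequenced from jejunal epithelial cells of 15 CC027/GeniUnc mice (a strain of the Collaborative Cross), in 5 groups of 3 mice, and the labels name no transgene or knockout. Of the groups, 4 were sensitized with crude peanut extract by gavage, 2 mg once a week for 3 weeks and 5 mg once in week 4. Of these, 3 groups were then challenged with 12 mg of peanut by gavage and killed 30, 60 or 120 min later, and the other was killed unchallenged (0 min) and is called the sensitized controls. The fifth group received PBS in place of peanut and was killed unchallenged (PBS mice). Mice gavaged without peanut at the time of challenge were not analysed here, so handling and time since gavage cannot be told apart from peanut. The epithelium was shaken off a 4 cm stretch of jejunum, starting 6 cm below the pylorus, after 75 min at room temperature in a buffer with EDTA (2 mM) and DTT (0.5 mM). The labels used here give no age or sex. The titles carry different mouse numbers, so the libraries were taken as separate mice, and replicate numbers only name them.

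The libraries held 15661513 to 22691349 estimated counts each, of which mitochondrially encoded genes took 13.76% to 33.24%. In support of the labelled cell type, 7 general epithelial markers summed to 9757 to 13604 CPM (reads of a gene scaled to a common library total) in every library. Markers of stromal and endothelial cells summed to at most 10.3 CPM in 14 libraries and to 178 CPM in 30 min replicate 1. Other non-epithelial transcripts were present too. Across libraries, markers of B and plasma cells summed to 22.7 to 358 CPM and those of T cells and intraepithelial lymphocytes to 22.6 to 267 CPM. Red blood cell markers summed to 14.2 to 179 CPM, and smooth muscle markers to at most 67.4 CPM, at 30 min. Markers of villus enterocytes summed to 9186 to 20671 CPM and those of crypt stem and dividing cells to 923 to 1800 CPM, so transcripts of both were present in each isolate. In bulk RNA of this kind, more cells of a type and more RNA per cell cannot be told apart.

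Per transcript length, PAT-1 was the most abundant of the 9 messages and NBCe1 the least. Levels between genes were compared in TPM, an abundance corrected for length and scaled to a common total, over the 15 libraries. Counting only transcripts of at least 1000 bases, Slc26a6 averaged 91.3 ± 22.1 TPM and Slc26a3 55.1 ± 12.8 TPM (SD, n = 15). The mean levels were 39.3 TPM for Slc12a2, 35.4 for Kcne3, 31.4 for Kcnq1, 26.9 for Slc9a3, 23.1 for Kcnn4, 22.02 for Cftr and 13.8 for Slc4a4. Slc26a6 lay above Slc26a3 in 15 of 15 libraries, Slc26a3 above Slc12a2 in 15, and Cftr above Slc4a4 in 15. The genes between them were less clearly ordered: Slc12a2 exceeded Kcne3 in 11 libraries, Kcne3 exceeded Kcnq1 in 10, Kcnq1 exceeded Slc9a3 in 10, Slc9a3 exceeded Kcnn4 in 9, and Kcnn4 exceeded Cftr in 6. With this limit of 1000 bases, the pore gene Kcnq1 and its subunit gene Kcne3 were at like levels per length. With all transcripts summed they were not, at 32.2 TPM for Kcnq1 and 50.04 TPM for Kcne3. The level of Kcne3 depends on where the limit falls. Its transcripts Kcne3-201 (1012 bases, 14.8 TPM) and Kcne3-204 (1059 bases, 11.2 TPM) lie just above it, and Kcne3-207 (929 bases, 3.18 TPM) just below. In reads, which favour long messages, Kcnq1 took 112 CPM and Kcne3 35.5 CPM.

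**Figure D1:**
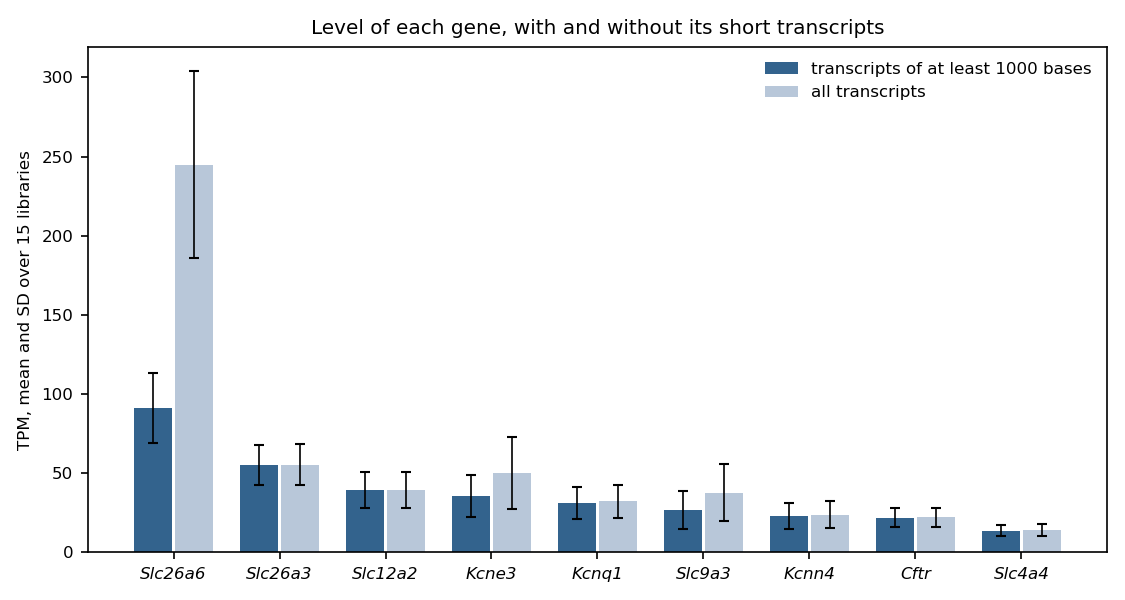
Bars give the mean TPM of each gene over 15 libraries (y axis, from 0), with the SD as the error bar, for transcripts of at least 1000 bases (dark) and for all transcripts (light). The bars of a gene match except for Slc26a6, which stands at 91.3 and 245 TPM, for Kcne3 at 35.4 and 50.04 TPM, and for Slc9a3 at 26.9 and 37.8 TPM.

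The level of Slc26a6 turned on 1 short transcript. With all transcripts summed, Slc26a6 averaged 245 TPM, and 62.6% of that (58.8% to 66.5% across libraries) came from the transcript Slc26a6-203, which has 418 bases and took 9.42% of the gene's counts. In the annotation (GRCm38, mm10) it lies at chr9:108912410-108913049, whereas the transcripts that hold most of the counts end at position 108862143. The transcript with the most counts of the gene, Slc26a6-202, has 1985 bases and gave 20.9% of the TPM. Of the other genes, 6 were carried by 1 transcript each, which gave 93.1% (Slc4a4-207) to 99.8% (Slc12a2-201) of the TPM. Slc9a3-203 gave 71.7% of its gene, and in Kcne3 the shares were 29.0% for Kcne3-201, 23.5% for Kcne3-204 and 20.8% for Kcne3-206. Annotated genes that overlap the 9 had at most 0.242 TPM. The limit of 1000 bases was chosen after these values were seen.

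Nearly all Slc4a4 transcripts belonged to the upstream of its 2 listed start sites. NBCe1 is made in different forms from an upstream promoter, known for the pancreas and other organs, and an internal promoter, known for the kidney. Transcripts that start near the upstream site, at chr5:88887260, held 99.5% of the Slc4a4 TPM on average (97.9% to 100% across the 15 libraries), against 0.492% (0% to 2.07%) for those near the internal site at chr5:89027966. In Kcne3, transcripts near the downstream site, at chr7:100178683, held 99.0% of the TPM, against 0.983% for the upstream one. The windows below, 300 bases each across a start site on the plus strand, are shown for both Slc4a4 sites, for Slc9a3 and Kcnn4, which of the 9 genes had the smallest p over the 5 groups jointly, and for Slc26a3, the 1 window of 9 with a TATA box. They are RefSeq sequence of GRCm38.p6, which is the C57BL/6J reference and not CC027/GeniUnc, and capitals mark GC boxes (GGGCGG) and TATA boxes (TATAAA) on either strand.
Slc4a4 upstream, chr5:88887010-88887309: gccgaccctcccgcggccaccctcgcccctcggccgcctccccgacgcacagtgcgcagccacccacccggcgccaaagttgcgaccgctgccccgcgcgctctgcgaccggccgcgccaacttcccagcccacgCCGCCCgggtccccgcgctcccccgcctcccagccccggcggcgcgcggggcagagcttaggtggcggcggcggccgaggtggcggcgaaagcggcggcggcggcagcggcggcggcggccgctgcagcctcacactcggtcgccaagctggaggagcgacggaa
Slc4a4 internal, chr5:89027716-89028015: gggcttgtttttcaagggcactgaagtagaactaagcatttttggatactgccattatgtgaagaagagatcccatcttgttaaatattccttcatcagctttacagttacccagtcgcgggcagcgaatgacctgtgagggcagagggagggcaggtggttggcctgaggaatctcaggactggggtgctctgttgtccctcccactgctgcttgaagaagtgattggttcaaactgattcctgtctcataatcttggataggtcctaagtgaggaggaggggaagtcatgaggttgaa
Slc9a3, chr13:74121163-74121462: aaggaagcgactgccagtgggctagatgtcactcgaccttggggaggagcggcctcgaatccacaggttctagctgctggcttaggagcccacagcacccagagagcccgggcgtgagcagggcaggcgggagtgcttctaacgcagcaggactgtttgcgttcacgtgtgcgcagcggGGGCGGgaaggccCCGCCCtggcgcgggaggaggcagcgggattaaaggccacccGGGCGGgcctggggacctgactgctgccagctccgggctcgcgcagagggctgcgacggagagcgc
Kcnn4, chr7:24370013-24370312: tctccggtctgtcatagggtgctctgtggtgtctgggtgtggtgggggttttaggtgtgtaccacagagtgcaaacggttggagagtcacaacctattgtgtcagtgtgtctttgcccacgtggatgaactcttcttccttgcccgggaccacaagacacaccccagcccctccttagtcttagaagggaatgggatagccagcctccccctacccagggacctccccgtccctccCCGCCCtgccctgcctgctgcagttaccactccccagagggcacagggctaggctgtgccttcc
Slc26a3, chr12:31437969-31438268: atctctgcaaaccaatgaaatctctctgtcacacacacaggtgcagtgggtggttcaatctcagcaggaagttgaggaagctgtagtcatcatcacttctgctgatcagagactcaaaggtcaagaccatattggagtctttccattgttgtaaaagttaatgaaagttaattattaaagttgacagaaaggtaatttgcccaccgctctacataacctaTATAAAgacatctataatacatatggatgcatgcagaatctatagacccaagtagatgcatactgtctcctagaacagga

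In Slc4a4, the upstream window is 80% G and C and holds 1 GC box, and the internal one is 48.3% G and C with neither motif. The Slc9a3 window, at 68.7% G and C, holds 3 GC boxes, and the Kcnn4 window 1. That of Slc26a3 is 39.3% G and C and holds 1 TATA box and no GC box. Of 32851 mouse windows of the same length, 35.7% hold GGGCGG and 13.6% hold TATAAA on either strand. Windows were found for 7 of the 9 genes, 9 in all. The full cyclic AMP response element TGACGTCA, present in 1.79% of all windows, was in 0 of the 9, as was the palindromic glucocorticoid response element, searched on either strand, which 0.009% of all windows hold. These are matches of letters and not shown binding sites.

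Among the absorptive genes, Slc9a3 was the one that passed a test. This gene (ENSMUSG00000036123, chr13:74121457-74169442) had 97.0, 99.9 and 126 CPM at 30 min and 117, 121 and 120 CPM at 60 min, and the 6 libraries lay below every sensitized control (143, 131 and 165 CPM). At 120 min it had 294, 133 and 231 CPM, and PBS mice had 131, 181 and 128 CPM. The 3 values at 120 min lie above all 6 of the earlier challenged libraries, and 120 min replicate 2 lies within the unchallenged range. Of all genes, 14.3% did not overlap the sensitized controls at 30 min and 18.5% at 60 min, in either direction. The shares of all genes for both times together, and for 120 min above both, were not computed. Slc9a3 averaged 219 ± 81.0 CPM at 120 min, against 108 ± 15.9 CPM at 30 min (SD, n = 3 each), a log2 fold change of 1.03 ± 0.22 (SE) with an adjusted p of 0.0448 in edgeR's quasi-likelihood test with Benjamini-Hochberg adjustment over 14968 genes. In that comparison 1.01% of all genes tested passed, 0.595% upward, and 1 of the 9 ion transport genes did. The libraries of both times did not overlap for 2 of the 9, Slc9a3 and Slc26a6, both upward, where 22.3% of all genes did not overlap and 12.1% did so upward.

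That call is close to the threshold, and 6 of 14 alternatives kept it. Correcting for transcript length gave 0.97 with an adjusted p of 0.0628 in edgeR, limma-voom gave 0.96 (adjusted p = 0.0553), and a fit of these 2 groups alone gave 1.004 (adjusted p = 0.162 in edgeR). It was also lost on leaving out 30 min replicate 1, 2 or 3 (adjusted p = 0.187, 0.0935 and 0.0636 in edgeR) or 120 min replicate 1 (0.73, adjusted p = 0.195) or 3 (0.98, adjusted p = 0.112). Marker sums moved along with it. Villus enterocyte markers summed to 14345 to 20671 CPM at 120 min, against 10037 to 12104 CPM at 30 min, general epithelial markers to 13224 to 13604 against 10243 to 12138 CPM, and Paneth cell markers to 1896 to 3842 against 4695 to 8667 CPM. Markers of B and plasma cells summed to 22.7 to 57.0 CPM at 120 min, against 95.1 to 273 CPM at 30 min, those of mast cells to 19.0 to 25.2 against 30.7 to 47.6 CPM, and those of red blood cells to 77.5 to 87.3 against 18.9 to 54.3 CPM. The crypt marker sums, 1118 to 1690 CPM at 120 min and 1327 to 1617 CPM at 30 min, overlapped. The part of these shifts in the Slc9a3 result was not tested.

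Against the sensitized controls, Slc9a3 passed at no time. At 30 min the log2 fold change was -0.44 ± 0.22 (adjusted p = 0.976), at 60 min -0.30 ± 0.22 (adjusted p = 0.604) and at 120 min 0.58 ± 0.22 (adjusted p = 0.192), all from edgeR and all against the same 3 controls. The last value moved with single libraries: without 120 min replicate 1 it was 0.29 (adjusted p = 0.541 in edgeR), and without 120 min replicate 2 it was 0.83 (adjusted p = 0.0361). The other 4 fits without 1 library did not pass. Between 120 and 60 min it was 0.88 ± 0.22 with an adjusted p of 0.0667 in edgeR, where 1.12% of all genes passed; it was the 1 gene of the 9 without overlap in that comparison, against 20% of all genes. Of 14 alternatives 2 called it: DESeq2, with the same size and an adjusted p of 0.00657, and edgeR without 120 min replicate 2, with 1.11 (adjusted p = 0.0113). Without 120 min replicate 1 it was 0.57 (adjusted p = 0.307 in edgeR).

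Neither anion exchanger passed in any comparison. Slc26a3 (chr12:31390871-31473917), which takes up chloride for bicarbonate, had 109, 151 and 172 CPM at 30 min, 152, 165 and 148 CPM at 60 min and 177, 198 and 142 CPM at 120 min, against 173, 166 and 151 CPM in the sensitized controls. PBS mice had 134, 175 and 164 CPM, every group overlaps the others, and the group means ran from 144 ± 31.9 CPM at 30 min to 173 ± 28.4 CPM at 120 min (SD, n = 3 each). Its largest log2 difference from the sensitized controls was -0.18 ± 0.16, at 30 min (adjusted p = 0.981 in edgeR). Slc26a6 (chr9:108853283-108913049), which exchanges chloride, bicarbonate and oxalate, had 174, 206 and 205 CPM at 30 min, below the 260, 232 and 258 CPM of the sensitized controls. At 60 min it had 179, 231 and 330 CPM, at 120 min 316, 269 and 247 CPM, and in PBS mice 170, 267 and 243 CPM. The 60 min libraries overlap those of every other group. The log2 difference was -0.36 ± 0.20 between 30 min and sensitized controls (adjusted p = 0.981) and 0.51 ± 0.20 between 120 and 30 min (adjusted p = 0.205), both in edgeR. Between 30 min and the sensitized controls, 14.3% of all genes did not overlap.

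**Figure D2:**
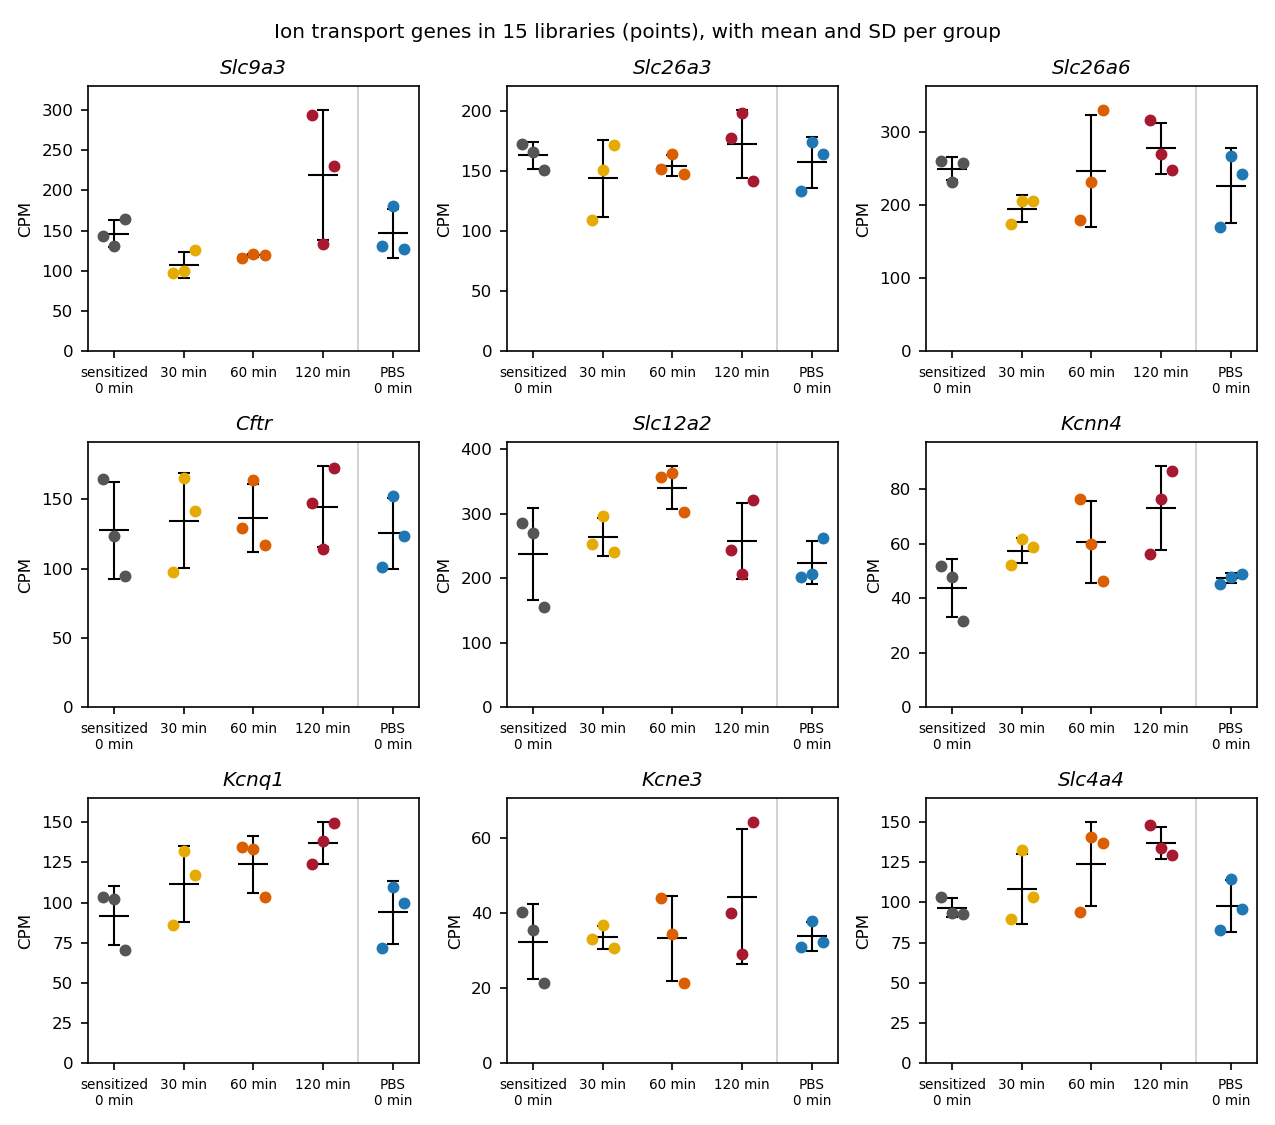
Each panel shows 1 gene, with CPM on the y axis (from 0) and the groups on the x axis: sensitized controls, 30, 60 and 120 min after challenge and, right of the line, PBS mice. Points are libraries and black bars the mean and SD of 3; the panel of Slc9a3 shows all 3 libraries at 120 min, 133 to 294 CPM, above the 97.0 to 126 CPM of the 30 and 60 min libraries.

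On the secretory side, neither gene passed in any comparison, and the group mean of Slc12a2 was highest at 60 min. Cftr (chr6:18170687-18322768), the apical chloride and bicarbonate channel, had 97.4, 165 and 141 CPM at 30 min, 129, 164 and 117 CPM at 60 min and 147, 114 and 173 CPM at 120 min, against 165, 123 and 95.1 CPM in the sensitized controls. PBS mice had 101, 152 and 124 CPM, every group overlaps the others, and the group means ran from 126 ± 25.7 CPM in PBS mice to 145 ± 29.4 CPM at 120 min (SD, n = 3 each). Its log2 differences from the sensitized controls were 0.08, 0.10 and 0.18 at 30, 60 and 120 min, each with an SE of 0.24. Slc12a2 (chr18:57878678-57946821), the chloride loader, had 253, 297 and 240 CPM at 30 min and 356, 362 and 302 CPM at 60 min, against 286, 270 and 155 CPM in the sensitized controls. It had 244, 206 and 321 CPM at 120 min, and 202, 207 and 262 CPM in PBS mice. All 3 libraries at 60 min exceeded every unchallenged and every 30 min library. Of all genes, 18.5% did not overlap between 60 min and the sensitized controls, and 6.94% between 60 and 30 min. The share against all unchallenged mice was not computed. The log2 difference at 60 min was 0.52 ± 0.21 (adjusted p = 0.327 in edgeR), and at 120 min 0.12 ± 0.21 (adjusted p = 0.821). Without sensitized replicate 3 these became 0.29 (adjusted p = 0.662 in edgeR) and -0.11. The crypt marker sums were 1203 to 1800 CPM at 60 min and 923 to 1425 CPM in the sensitized controls. Paneth cell markers summed to 6988 to 8204 CPM at 60 min, against 4112 to 4947 CPM, and general epithelial markers to 9757 to 10705 against 11729 to 12131 CPM, and the part of these sums was not tested.

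Absorption and secretion can be set side by side as the CPM of Slc9a3 divided by that of Slc12a2 in the same library. The ratio ran from 0.486 to 1.06 in the sensitized controls (median 0.501), from 0.336 to 0.523 at 30 min (0.383), from 0.327 to 0.398 at 60 min (0.333), from 0.643 to 1.201 at 120 min (0.718), and from 0.488 to 0.874 in PBS mice (0.647). The 60 min libraries all lie below the 6 unchallenged ones, and the 120 min libraries all lie above the 6 earlier challenged ones. These ratios were chosen after the values were seen, compare reads and not protein activity, and carry no test. Their separations largely restate those of Slc9a3 and Slc12a2 given above, and the share of other gene pairs so separated was not computed. Villus enterocyte marker sums also differed between 30 and 120 min, and their part in the ratio was not tested.

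The basolateral potassium channels and the bicarbonate loader had their highest group means at 120 min, as did Slc9a3, Slc26a3, Slc26a6 and Cftr. Kcnn4 (chr7:24370263-24386690), the channel opened by calcium, had 52.3, 61.6 and 58.7 CPM at 30 min, 76.3, 59.8 and 46.2 CPM at 60 min, and 56.3, 76.4 and 86.6 CPM at 120 min. The sensitized controls had 52.0, 47.7 and 31.6 CPM and the PBS mice 45.3, 48.0 and 48.9 CPM, so the 30 and 120 min libraries all exceed all 6 unchallenged ones. The share of all genes that did so was not computed, here and for the genes below. Against the sensitized controls alone, 14.3% of all genes did not overlap at 30 min and 26.5% at 120 min. The log2 fold change of Kcnn4 was 0.39 ± 0.20 at 30 min (adjusted p = 0.976), 0.47 ± 0.20 at 60 min (adjusted p = 0.353) and 0.74 ± 0.20 at 120 min (adjusted p = 0.082), in edgeR against the same sensitized controls. Without sensitized replicate 3 these values were 0.21, 0.29 and 0.55. At 120 min 2 of 16 alternatives took it past the threshold: all 6 unchallenged mice as the control (0.68, adjusted p = 0.0352 in edgeR) and DESeq2 (0.74, adjusted p = 0.0155).

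Kcnq1 (chr7:143106362-143427042), the channel opened through cyclic AMP with KCNE3, had 86.0, 132 and 117 CPM at 30 min, 135, 133 and 103 CPM at 60 min and 124, 138 and 150 CPM at 120 min. The sensitized controls had 103, 102 and 70.4 CPM, and the PBS mice 72.0, 110 and 99.9 CPM. At 120 min all 3 libraries lie above all 6 unchallenged ones, and the log2 difference from the sensitized controls was 0.58 ± 0.19 (adjusted p = 0.143 in edgeR). At that time 13.3% of all genes lay above the sensitized controls without overlap. Kcne3 (chr7:100176502-100184869) had 33.3, 36.9 and 30.8 CPM at 30 min, 44.2, 34.4 and 21.4 CPM at 60 min and 31.0, 38.1 and 32.5 CPM in PBS mice. It had 40.1, 29.1 and 64.3 CPM at 120 min, against 40.4, 35.6 and 21.3 CPM in the sensitized controls, and the groups overlap. Its difference, 0.45 ± 0.30, had an adjusted p of 0.462 in edgeR and was 0.09 without 120 min replicate 3.

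Slc4a4 (chr5:88886818-89239653) had 90.0, 132 and 103 CPM at 30 min, 94.0, 141 and 137 CPM at 60 min, and 148, 134 and 129 CPM at 120 min. The sensitized controls had 103, 93.4 and 93.0 CPM and the PBS mice 83.0, 115 and 96.1 CPM, all below the 120 min libraries. Of all genes, 13.3% lay above the sensitized controls alone in this way. The log2 difference at 120 min was 0.50 ± 0.17 from the sensitized controls (adjusted p = 0.143 in edgeR), and it stayed between 0.43 and 0.55 on leaving out each of the 6 libraries in turn.

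**Figure D3:**
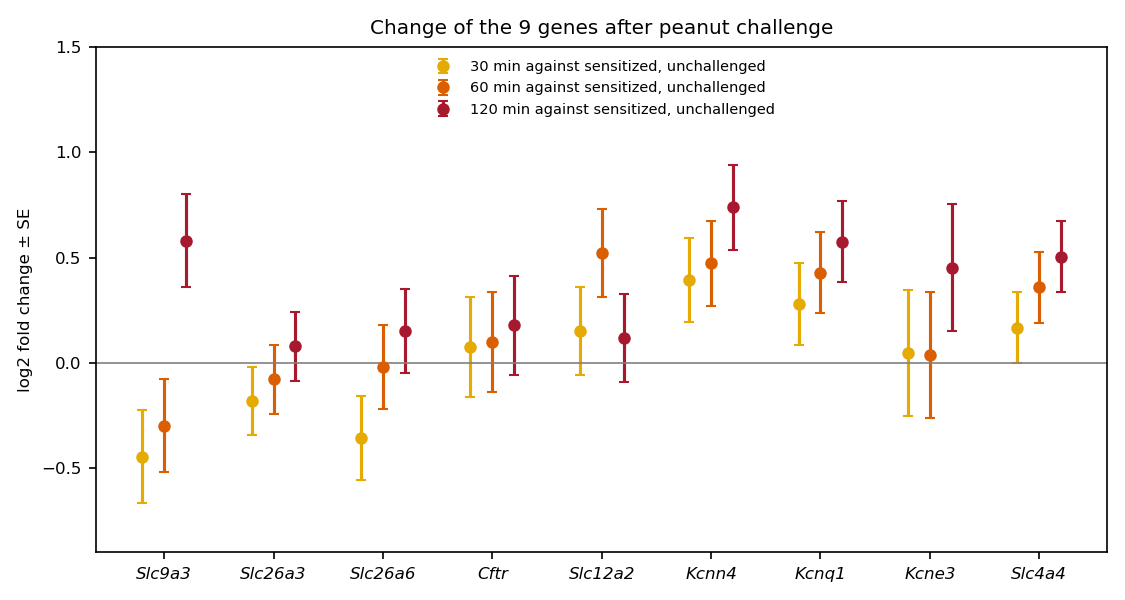
Points give the log2 fold change (y axis) of each gene (x axis) at 30, 60 and 120 min after challenge against the same 3 sensitized controls, with the SE as the bar. All 9 points at 120 min lie above 0, from 0.08 (Slc26a3) to 0.74 (Kcnn4), and none passed the adjusted threshold.

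Taken over the 9 genes, 0 passed at 30, 60 or 120 min against the sensitized controls in edgeR. Of all genes tested, 0% passed at 30 min, 0.00668% at 60 min and 1.26% at 120 min. At an unadjusted p under 0.05 there were 0 of the 9 and 755 of all 14968 genes at 30 min, 3 of the 9 and 1883 genes at 60 min, and 4 of the 9 and 2650 genes at 120 min. DESeq2 called 0 of the 9 and 6 genes at 30 min, 0 of the 9 and 189 genes at 60 min, and 1 of the 9 (Kcnn4) and 846 genes at 120 min. The libraries did not overlap the controls for 3 of the 9 genes at 30 min (1 above), 3 at 60 min (2 above) and 3 at 120 min (all above: Kcnn4, Kcnq1 and Slc4a4), where 14.3%, 18.5% and 26.5% of all genes did not overlap, the last with 13.3% above. At 120 min 9 of 9 differences were positive with a median of 0.45, against a median of -0.01 over all genes tested. At 30 and 60 min 6 of 9 were positive, with medians of 0.08 and 0.10. Sensitized replicate 3 is the lowest of the 15 libraries for Cftr, Slc12a2, Kcnn4, Kcnq1 and Kcne3 and for the crypt marker sum (923 CPM), and its mitochondrial share was 26.73%. Without it, the 120 min difference was 0.68 for Slc9a3, 0.55 for Kcnn4, 0.48 for Slc4a4, 0.42 for Kcnq1, 0.23 for Kcne3, 0.01 for Cftr and -0.11 for Slc12a2, and 8 of 9 were positive with a median of 0.23. At 30 and 60 min it was then 3 and 5 of 9, with medians of -0.10 and 0.0034. General epithelial markers summed to 13224 to 13604 CPM at 120 min, against 11729 to 12131 CPM in the sensitized controls, Paneth cell markers to 1896 to 3842 against 4112 to 4947 CPM, and markers of T cells and intraepithelial lymphocytes to 22.6 to 67.8 against 71.0 to 267 CPM. Also without overlap, and lower at 120 min, were the sums of goblet cell markers (7524 to 8279.8 against 9889 to 16114 CPM), B and plasma cell markers (22.7 to 57.0 against 120.04 to 209.99 CPM), mast cell markers (19.0 to 25.2 against 27.8 to 46.7 CPM) and red blood cell markers (77.5 to 87.3 against 125 to 179 CPM). Their part in these differences was not tested.

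Sensitization alone was read between the unchallenged groups, where none of the 9 genes passed. Between sensitized controls and PBS mice the log2 differences ran from -0.11 ± 0.20 (Kcnn4) to 0.14 ± 0.20 (Slc26a6), with a median of -0.0011, and all 9 genes overlapped. In edgeR 0 of the 9 and 0% of all genes passed, with 212 genes and 0 of the 9 at an unadjusted p under 0.05, and DESeq2 called 6 genes and 0 of the 9. In 7.98% of all genes the groups did not overlap. At this size the SEs of 0.16 to 0.30 leave differences of that order not detectable. Between 60 and 30 min, 0 of the 9 and 0% of all genes passed in edgeR, with 667 genes and 0 of the 9 at an unadjusted p under 0.05; DESeq2 called 5 genes, 0 of them among the 9, and Slc12a2 was the 1 gene of the 9 without overlap, against 6.94% of all genes. Tested over the 5 groups jointly in edgeR, 0 of the 9 passed, against 0.347% of all genes, and the smallest adjusted p were 0.126 for Slc9a3 and 0.216 for Kcnn4, which DESeq2's likelihood ratio test put at 0.0033 and 0.0464.

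Within Slc9a3 and Kcne3, the share of a short transcript was larger in most challenged libraries than in any unchallenged one. Slc9a3-202, a listed non-coding transcript of 578 bases that covers the first part of the gene (chr13:74121457-74130891), held 29.2%, 35.3% and 34.5% of the Slc9a3 TPM at 30 min. The 60 min libraries gave 35.3%, 33.8% and 21.3%, and the 120 min libraries 30.4%, 38.2% and 31.3%. The sensitized controls stood at 23.8%, 22.005% and 20.6%, and the PBS mice at 22.3%, 21.8% and 22.03%. Thus 8 of 9 challenged libraries lie above all 6 unchallenged ones, and the exception, 60 min replicate 3, has the highest mitochondrial share (33.24%). The full-length coding transcript Slc9a3-203 (5118 bases) held 61.3% to 78.7% in challenged mice and 76.2% to 79.0% in unchallenged mice. In counts Slc9a3-202 is small, 27.0 to 168 per library or 1.495% to 3.503% of the gene's counts in challenged and 1.59% to 1.87% in unchallenged mice, and 8 of 9 are again above.

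Kcne3-206, a coding transcript of 439 bases, held 15.2% to 40.5% of the Kcne3 TPM in challenged mice (median 24.0%), against 7.52% to 16.1% in unchallenged mice (median 12.7%). Here too 8 of 9 challenged libraries lie above all 6 unchallenged ones, and the 40.5%, 29.7% and 29.6% at 120 min are among the highest. The exception is here 60 min replicate 2 (15.2%), with a mitochondrial share of 18.25%, and 60 min replicate 3 stands at 23.6%. Kcne3-206 rests on 4.93 to 109 counts per library. It was named for a mean share of at least 20% over the 15 libraries, and reached that mean (20.8%) only through challenged libraries. That rule favours the separation given here. Of 8437 transcripts that hold on average 20% to 80% of the TPM of a gene with at least 100 counts, 0.249% stood above in this way and 0.142% below. That average also runs over all 15 libraries, so Kcne3-206 is among the 8437 only through its challenged libraries. For Kcne3-206 these shares are therefore no independent yardstick. Slc9a3-202 and Kcne3-206 are both short, so the effective length that Salmon assigns them weighs on their TPM. That length was 275 to 304 bases in challenged and 274 to 313 in unchallenged mice for Slc9a3-202, and 133 to 157 against 137 to 169 bases for Kcne3-206. Slc26a6-203, also short, held 59.5% to 65.7% in challenged and 58.8% to 66.5% in unchallenged mice. Both transcripts were picked after their values were seen, and no test was made. Leaving out all transcripts under 1000 bases of the 9 genes changed 0 calls among them.

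Genes around these transporters were read from 6 lists. At 120 min against the sensitized controls, 1.26% of all genes passed. Of 12 tested genes of 18 listed for sodium and acid-base exchange, 1 did, upward. It was Slc26a2, an apical sulfate and chloride exchanger, with 353, 252 and 229 CPM at 120 min, against 187, 140 and 140 CPM in the sensitized controls, a log2 fold change of 0.84 ± 0.20. Its adjusted p in edgeR, which rounds to 0.05, is just under the threshold, and 0 of the 6 fits without 1 library kept the call (adjusted p 0.0583 to 0.217). It was also lost with length offsets, without mitochondrial genes and with the 2 groups alone (adjusted p = 0.0774, 0.0518 and 0.0707 in edgeR). In all, 7 of 16 alternatives kept the call. The list's median was 0.24, with 10 of 12 positive.

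Of the other lists none had a gene past the threshold in edgeR in any of the 7 comparisons. Among 14 tested other chloride and potassium channels the median at 120 min was 0.04; Kcnk5, a basolateral potassium channel, had 243 ± 62.1 CPM, against 166 ± 33.2 CPM in sensitized controls, and Clic4, an intracellular chloride channel protein, 28.2 ± 4.18 against 35.4 ± 0.637 CPM (SD, n = 3 each). Among 5 sodium pump and FXYD genes the median was 0.22, and the pump subunits Atp1b1 and Atp1b3 were at 0.30 ± 0.20 and 0.24 ± 0.16. The 18 scaffold and kinase genes that hold and control NHE3 and CFTR had a median of 0.13. Sgk1, the kinase that carries steroid signals to NHE3, had 332, 143 and 225 CPM at 120 min, against 148, 54.1 and 57.4 CPM in the sensitized controls, with 1.43 ± 0.50 and an adjusted p of 0.175 in edgeR. Ezr, the linker that ties NHE3 to actin, was at 0.22 ± 0.17.

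The 20 tested receptors and cyclic nucleotide enzymes had a median of -0.10. Vipr1, the receptor for the secretagogue VIP, had 508, 383 and 461 CPM at 120 min, against 364, 282 and 272 CPM in the sensitized controls, with 0.56 ± 0.19 (adjusted p = 0.139 in edgeR). P2ry2, a receptor for luminal nucleotides, had 26.9, 25.97 and 22.8 CPM, against 17.5, 18.1 and 13.6 CPM, with 0.62 ± 0.24 (adjusted p = 0.197 in edgeR). Of the 20, 4 lay above the sensitized controls without overlap (Vipr1, P2ry2, Ptger4 and Pde5a) and 4 below (Ptger2, Chrm1, Chrm3 and Prkaca), beside 26.5% of all genes without overlap. The 6 besides Vipr1 and P2ry2 are named after their values were seen, and 0 of the 8 passed. Among 6 aquaporins the median was 0.26; Aqp4, a basolateral water channel of crypt cells, was at 0.50 ± 0.25 (adjusted p = 0.327 in edgeR), and Aqp8 stayed under 1 CPM in every library.

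**Figure D4:**
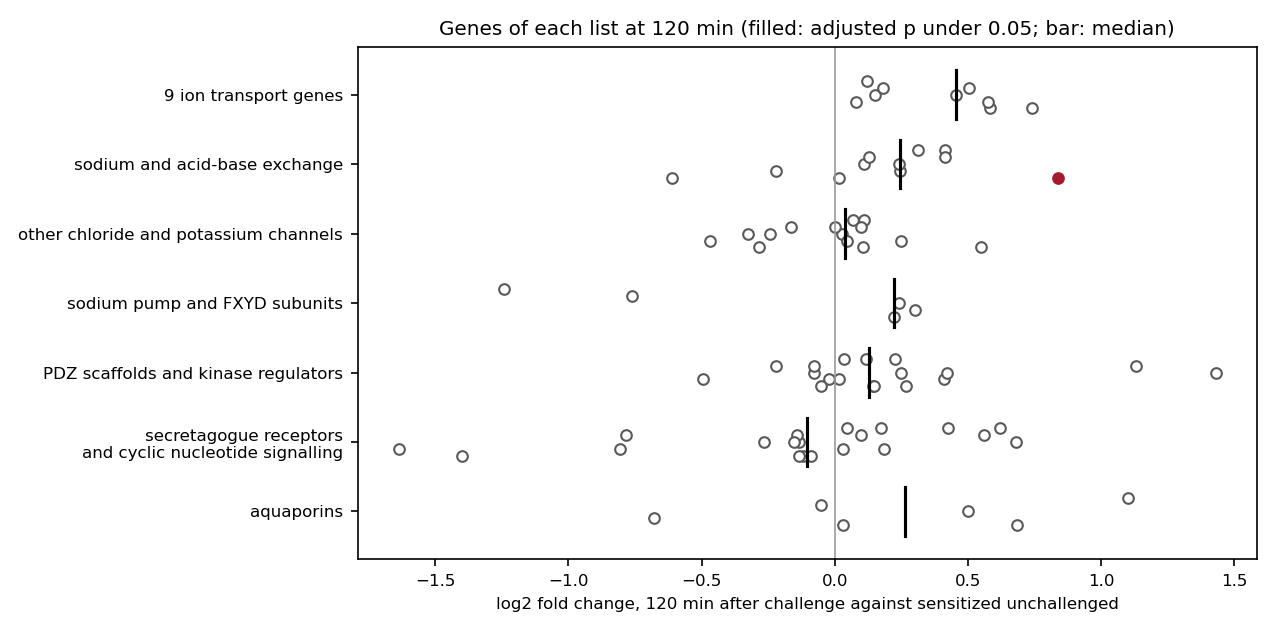
Each circle is a tested gene, placed by its log2 fold change at 120 min against the sensitized controls (x axis) in its list (y axis); a bar marks the list's median and a filled circle an adjusted p under 0.05. The 9 ion transport genes at the top have a median of 0.45, Slc26a2 at 0.84 is the 1 filled circle, and Car1, at 0 in all 3 sensitized controls, is not drawn but enters its list's median.

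The genes closest in pattern to 3 of the 9 were sought by the root mean square difference of centred log2 CPM over the 15 libraries, among 9549 genes with at least 5 CPM. For Slc9a3 they were Gimd1 (0.214), Xpnpep1 (0.223), a cytosolic aminopeptidase, and Slc52a3 (0.225), a riboflavin transporter; Slc9a3 itself had an SD of 0.431 on that scale. For Kcnn4 they included Ube2e3 (0.166), a ubiquitin-conjugating enzyme, and Kcnq1 (0.171). The SDs were 0.361 for Kcnn4 and 0.331 for Kcnq1. For Slc4a4 they were Map3k9 (0.0939), Smad4 (0.0978) and Ubr3 (0.102), with an SD of 0.279 for Slc4a4. These are descriptions over libraries that share groups and depth, with no test.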

How the data were processed

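Per the submitters' processing notes, the authors trimmed reads with cutadapt 1.18 and quantified them with Salmon 1.2.1, with mm10 as the build; the sources used here do not give the transcript annotation. By the file headers, each deposited table lists 139058 transcripts with an estimated count, a TPM value (scaled to a common total by the authors) and 2 lengths in bases. Reads were paired, 151 bp, from polyadenylated RNA.

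Transcripts were summed to 52844 genes with GENCODE M21 (137943 IDs matched without their version, 137334 with it); the 1115 unmatched held 0.374% to 0.602% of a library's counts. Estimated counts were rounded, filtered by group with filterByExpr (14968 of 28801 genes with a count kept), scaled by TMM and tested with edgeR 4.0.16 in R 4.3.3 (estimateDisp and glmQLFit, robust, then glmQLFTest) in 1 fit of all 15 libraries with 10 residual degrees of freedom and a common biological coefficient of variation of 0.26. The threshold was an adjusted p under 0.05 (Benjamini-Hochberg, over the 14968 genes). SEs are the log2 fold change over the root of the F statistic. Comparisons set every challenged group against the sensitized controls, these against PBS mice, the 3 pairs of times, and the 5 groups jointly. CPM are TMM-scaled; TPM were not tested. The tests were tried on simulated data.

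Alternatives were DESeq2 1.42.0 and its size factors, limma 3.58.1 (voom), no filter, length offsets, no mitochondrial genes, other controls, the 2 groups alone and each replicate left out. Named beside the 9 genes are list genes past the threshold, or the 2 with the smallest joint p of a list, and the 3 nearest genes of 3 members, of which 1 is not reported here. The members, lists and rule were chosen with earlier results of these data known. Python 3.11.15 with numpy 2.4.6 and pandas 2.3.3 joined the tables, and matplotlib 3.10.9 drew them. Nothing in the labels says that replicates beyond their different mouse numbers were prepared on separate days, so p-values measure the spread between these libraries.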

Additional observations from a re-analysis of the deposited data

Results flagged for a closer look

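Slc9a3 drew attention because its level differed between times after challenge by a test of the difference itself: at 120 min it stood 1.03 (log2) above 30 min, with an adjusted p of 0.0448 in edgeR's quasi-likelihood test. The 3 libraries at 120 min (294, 133 and 231 CPM) all lie above the 3 at 30 min (97.0, 99.9 and 126 CPM), as is the case, upward, for 12.1% of all genes tested. Groups of 3 are too small for the check of single outlying samples used here, so none was made.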

How the results depend on the processing

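The alternatives gave 1015 values of single genes, most of them for results that did not pass in the edgeR fit. Of these, 931 kept their side of the threshold and, outside the joint test, their direction. A further 17 lost and 7 gained the call, 60 that never passed changed sign, and 0 that passed did. The 17 lost calls were those of Slc9a3 for 120 against 30 min, which 6 of 14 alternatives kept, and of Slc26a2 at 120 min against the sensitized controls, which 7 of 16 kept. Counts of genes past the threshold also depended on the setting. In this paragraph 30, 60 and 120 min alone stand for each time against the sensitized controls (0, 1 and 188 genes in the edgeR fit), beside 151 for 120 against 30 min, 168 for 120 against 60 min, 0 for 60 against 30 min and for sensitization, and 52 jointly. Without the filter the counts were 49 at 60 min, 279 for 120 against 60 min and 380 jointly, with 2, 3, 3 and 3 list genes at 120 min, 120 against 30 min, 120 against 60 min and jointly, where the edgeR fit had 1, 0, 0 and 0. Length offsets gave 0 at 60 min, 34 at 120 min, 32 and 46 for 120 against 30 and 60 min and 12 jointly, with 0 of the 9 genes and 0 list genes called, and put 41.3% of the calls of 120 against 60 min upward, where it was 52.4%. Leaving out mitochondrial genes left 0 list genes at 120 min. With PBS mice as controls there were 0 genes at 60 min and 2 list genes at 120 min; with all 6 unchallenged mice 0 at 60 min and 644 at 120 min, with 1 of the 9 (Kcnn4) and 4 list genes. Limma-voom called 0 of the 9 and 1 list gene for 120 against 30 min (70.5% of all calls upward, where it was 58.9%) and 34 genes jointly. DESeq2 called 6, 189 and 846 genes at 30, 60 and 120 min, 6 for sensitization, 838, 951 and 5 for 120 against 30, 120 against 60 and 60 against 30 min, and 1121 jointly; of the 9 genes it called 1 at 120 min, 1 for 120 against 60 min and 2 jointly, and of the lists 6, 9 and 8 for 120 against 30 min, 120 against 60 min and jointly. Fits of the 2 groups alone gave 0 at 60 min, 4 and 0 for 120 against 30 and 60 min, 0 list genes at 120 min and 0 of the 9 for 120 against 30 min. Leaving out each replicate in turn gave 0 to 1 genes at 30 min, 0 to 385 at 60 min, 7 to 240 at 120 min, 4 to 67 for 120 against 30 min, 0 to 1151 for 120 against 60 min and 0 to 1 for 60 against 30 min. Of the 9 genes it gave 0 to 1 at 120 min, for 120 against 30 min and for 120 against 60 min, and of the lists 0 to 3 at 60 min, 0 to 0 at 120 min and 0 to 1 for 120 against 60 min. The cause of these shifts was not tested. The order of the 9 genes by TPM (9 ranks) kept 0 ranks in CPM and 5 with transcripts under 1000 bases left out, an alternative added after seeing the data. No paired analysis was possible because the replicate numbers used here only name mice: the labels carry none, and the mouse number in each title belongs to 1 library.

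With 3 mice a group, SEs of the 9 genes ran from 0.16 to 0.30 on the log2 scale. The transcripts that distinguish Slc9a3 and Kcne3 libraries rest on as few as 27.0 and 4.93 counts. Estimated counts divide reads that transcripts share, so transcript shares are less certain than gene sums.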
